A study of Mus musculus with 27 samples.

Results

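Untreated KUSA4b10 cells collected 24 h into the experiment were compared with untreated cells collected at 1 h. The members are the 6 arrays whose titles place them in the untreated 1 h and 24 h groups, 3 in each, of 27 arrays in the series. KUSA4b10 is a mouse stromal line from bone marrow with osteoblast potential, and total RNA was read on 1-colour Affymetrix expression arrays. The other arrays of the series hold untreated cells at 6 h and cells given parathyroid hormone, PTH, at 10 nM or PTH-related protein, PTHrP, at 20 nM, at 1, 6 and 24 h. Both groups compared are the same line with no ligand, and they differ by their labelled time alone. Everything below is from 1 cell line. Medium, serum level, density and day of culture: not given in the sources used here. Ephrin B2 control by these ligands is the subject of the study, and the untreated arrays are its time-matched controls.

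A culture that is left alone still changes. Cells that have recently been handled or given fresh medium express immediate early genes, the first transcription factors switched on by serum and growth factors, and then move through the cell cycle until they are crowded or short of growth factors. Secretory cells such as osteoblasts keep endoplasmic reticulum chaperones at high levels, and these are raised further by the unfolded protein response, in which sensors in that compartment answer to unfolded protein. The sterol pathway, lysosomal genes and interferon-stimulated genes are other programmes known to move with nutrients, confluence and time. These sentences are background and were not measured here.

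Replicates were close on both sides of the comparison, with correlations between arrays of 0.9965 to 0.9972 at 1 h and 0.9971 to 0.9978 at 24 h. Array medians averaged 87.2 ± 1.08 at 1 h and 87.8 ± 0.77 at 24 h on the linear intensity scale (SD, n = 3, two-sided exact permutation p = 0.6). Normalization makes array medians alike, so they do not measure how close the replicates were. For Actb, which encodes beta-actin, the log2 level of the 3' control minus that of the 5' control was 0.23 ± 0.02 at 1 h and 0.38 ± 0.01 at 24 h (exact p = 0.1). For Gapdh, a glycolytic enzyme gene, the same difference was -0.18 ± 0.01 and -0.21 ± 0.01 (exact p = 0.1), and 0.1 is the smallest p that 3 arrays against 3 allow. These control ratios, which move with RNA length and labelling, therefore differed slightly with time and in opposite directions, and their part in the results was not tested. No label states whether the replicates came from separate cultures, so each p-value reflects the spread among arrays alone, and that spread may be technical. For the gene tests below, this spread is pooled over all 27 arrays of the 9 groups.

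The genes of cell division fell at 24 h, together with genes of sterol and fatty acid synthesis, ribosome assembly and the osteoblast lineage. Genes of the endoplasmic reticulum chaperone system, the interferon response and the lysosome rose. Of 15711 genes tested, 3635 passed an adjusted p of 0.05, which is 23.1%. Of these, 1821 were higher at 24 h, 11.6% of all genes tested, and 1814 were lower, 11.5%. Most differences were modest: the median size among the called genes was 0.418 on the log2 scale, against 0.122 over all genes, and the median standard error was 0.102. Differences of over 2-fold numbered 118 upward and 210 downward, and differences of over 4-fold numbered 5 upward and 9 downward. In cultured cells measured in bulk, fewer cells in a state and less RNA per cell cannot be told apart.

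**Figure D1:**
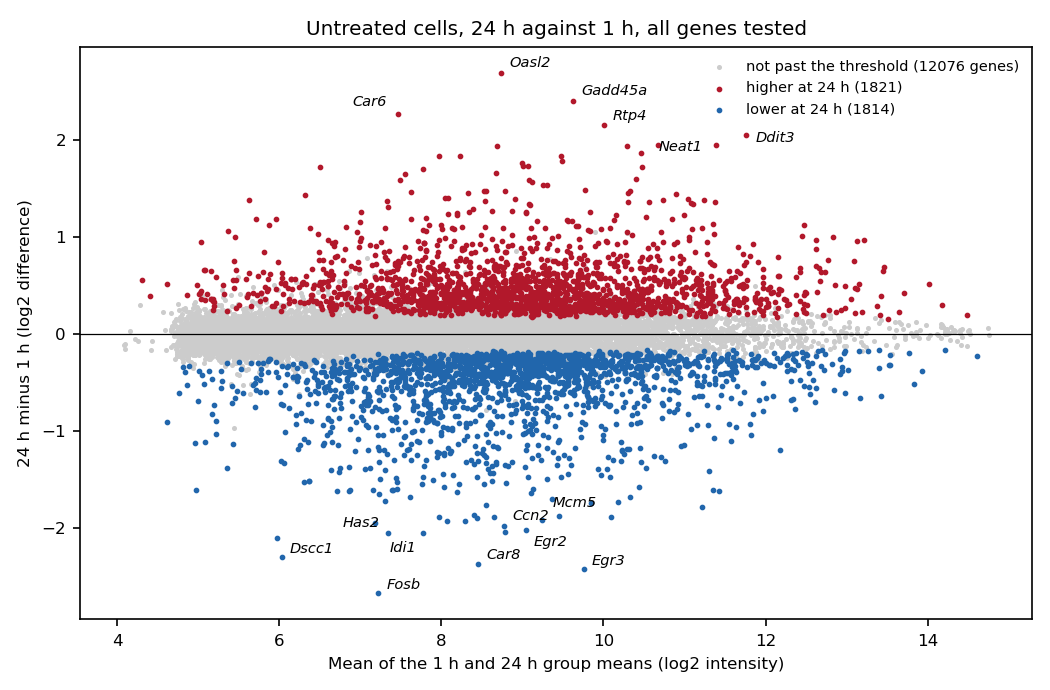
Each point is 1 of 15711 genes, with the mean of the untreated 1 h and 24 h group means on the x axis (log2 intensity) and the log2 difference, 24 h minus 1 h, on the y axis. The 1821 genes called higher (red) and the 1814 called lower (blue) occur at all intensities, and downward differences beyond 2-fold outnumber upward ones, 210 to 118.

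Most of this difference arose after 6 h. Untreated cells at 6 h differed from those at 1 h in 356 genes, 2.27% of those tested, with 113 higher (0.719%) and 243 lower (1.55%). Untreated cells at 24 h differed from those at 6 h in 3682 genes (23.4%), with 1895 higher (12.1%) and 1787 lower (11.4%). These comparisons share arrays with the one between 24 and 1 h, so they are given only to place the changes in time.

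The gene lists below were taken by their known function, and some genes are on several lists. Most are described by how many of their tested members were called, and many of these also by their median difference. The median of all genes tested was -0.005.

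**Figure D2:**
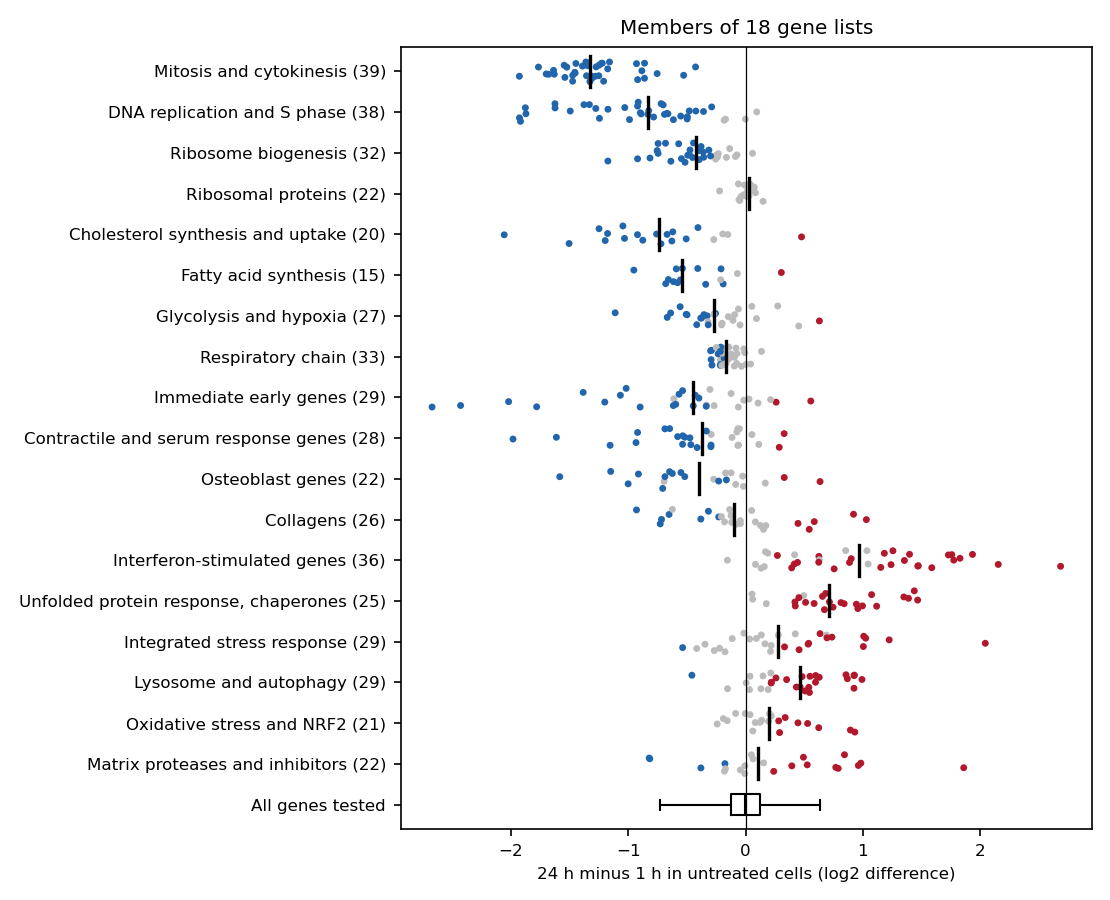
Log2 differences between untreated cells at 24 h and 1 h for the members of 18 gene lists, with the number of tested genes in brackets. Red and blue points are called higher and lower, grey points are not called, black bars are list medians, and the box shows all genes tested with its middle line at their median. All 39 mitosis genes lie below 0, and 35 of 36 interferon-stimulated genes lie above 0.

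Cell division genes gave the broadest decrease. All 39 mitosis and cytokinesis genes tested fell, with a median difference of -1.327 and a range from -1.93 to -0.43. At 6 h against 1 h limma called none of the 39, 8 had an unadjusted p under 0.05, and their median was -0.122. Aurkb encodes Aurora kinase B, which corrects the attachment of chromosomes to the spindle. Its log2 levels were 8.93, 9.04 and 9.11 on the 1 h arrays and 7.04, 7.17 and 7.08 on the 24 h arrays. The groups were far apart, and the level fell by 1.93 ± 0.09 (SE), a 3.81-fold decrease (adjusted p = 4.63e-13). Mki67, the gene of the proliferation antigen Ki-67, was at 10.22, 10.49 and 9.95 at 1 h and at 8.67, 8.86 and 8.71 at 24 h, a difference of -1.47 ± 0.21 (adjusted p = 6.49e-06). Its 6 h arrays, at 10.25, 10.17 and 10.27, lay within the range of the 1 h arrays. Bub1, a spindle checkpoint kinase, fell by 1.77, and Top2a, the topoisomerase that untangles sister chromosomes, by 1.68. Birc5, the survivin gene, fell 3.25-fold. The cyclins Ccna2 and Ccnb2 and the kinase Cdk1 fell by 1.64, 1.35 and 1.33. The 15 largest decreases of all genes also held 3 genes outside the list with known roles in this process: Ska1 and Cdca5 in chromosome attachment and cohesion, and Pbk, a mitotic kinase. Their differences were -1.95, -1.90 and -2.04.

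DNA replication genes fell as well, by a smaller median. Of 38 tested, 34 were lower and none was higher, with a median of -0.829. Mcm5, a subunit of the replicative helicase, was at 10.01, 10.27 and 10.33 at 1 h, at 10.29, 10.07 and 10.30 at 6 h and at 8.44, 8.23 and 8.17 at 24 h. The difference between 24 and 1 h was -1.92 ± 0.12 (adjusted p = 2.80e-11), and the 6 h arrays did not separate from those of 1 h. The other subunits fell unequally: Mcm4 by 1.38, Mcm6 by 1.28, Mcm3 by 1.03, Mcm2 by 0.92 and Mcm7 by 0.67. Uhrf1, which carries DNA methylation through replication, fell by 1.93, and Rrm2 and Tk1, which supply deoxynucleotides, fell by 1.88 and 1.87. Dscc1 and Esco2, which link replication to sister chromatid cohesion, had differences of -2.30 ± 0.15 and -2.10 ± 0.25. E2f1, a transcription factor gene of this programme, was 8.10, 8.21 and 8.13 at 1 h and 7.85, 8.15 and 7.93 at 24 h. Its groups overlapped and the difference of -0.17 ± 0.09 was not called (adjusted p = 0.185). The other 3 members that were not called were Pola2, Orc1 and Cdc45, between -0.18 and 0.10.

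Of 25 genes of cycle inhibition and quiescence tested, a list that also holds the D cyclins, 4 were higher and 9 lower, and 2 of the 9 were the cyclins Ccnd1 and Ccnd3. Gadd45a, a growth arrest and DNA damage gene, was the second largest increase of all genes. Its levels were 8.85, 8.31 and 8.14 at 1 h, 8.63, 9.11 and 8.51 at 6 h and 10.97, 10.72 and 10.80 at 24 h. The increase was 2.39 ± 0.18, or 5.26-fold (adjusted p = 3.07e-10), with every 24 h array above every earlier one. Cdkn1b, the p27 inhibitor of cyclin-dependent kinases, rose by 0.70 ± 0.09, from 9.74 to 9.95 at 1 h to 10.42 to 10.59 at 24 h. Cdkn1a, the p21 inhibitor and a p53 target, gave -0.07 ± 0.07, and its groups overlapped (adjusted p = 0.618). Ccng2, a cyclin of resting cells, rose by 1.09 and had already risen by 1.47 at 6 h (adjusted p = 1.28e-08). Cdkn2d fell by 0.93, and Ccnd1 and Ccnd3, cyclins D1 and D3, fell by 0.42 and 0.49. The p53 targets were split, 5 higher and 5 lower of 22, with a median of 0.047. Trp53inp1 rose by 1.19 ± 0.20, whereas Plk2 fell by 0.68 ± 0.11.

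Genes that build ribosomes fell, while the genes of the ribosomal proteins themselves did not pass. Of 32 ribosome biogenesis genes, 23 were lower and none higher, with a median of -0.419. Dkc1, the pseudouridine synthase dyskerin, fell from 10.24, 10.24 and 10.21 to 9.13, 8.99 and 9.04, a difference of -1.17 ± 0.09 (adjusted p = 1.20e-09). Nop58 and Nop56, core proteins of the particles that methylate ribosomal RNA, fell by 0.81 and 0.75, and Odc1, which starts polyamine synthesis, fell by 0.92. Myc, a transcription factor gene known to drive such genes, was higher at 6 h than at 1 h and lowest at 24 h. Its arrays read 10.60, 10.59 and 10.68, then 11.25, 11.10 and 11.05, then 10.13, 9.95 and 10.00, and the difference from 1 to 24 h was -0.59 ± 0.13 (adjusted p = 0.00112). Among 22 ribosomal protein genes the count called by limma was 0 at an adjusted p of 0.05 and 1 at an unadjusted one, with differences between -0.22 and 0.15 and a median of 0.028. Their mean log2 level lay between 13.447 and 13.495 on every 1 h and 24 h array.

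The promoters of the division genes were searched for motifs known from this programme. The table of RefSeq promoters, build GRCm38.p6, gave 250 bases upstream of the start for 12557 of the 15711 genes tested, and both strands were read. The CHR motif, TTTGAA, to which the complexes that time mitotic transcription bind, was present in 12 of 32 called mitosis genes with a promoter, 37.5%, against 13.27% of all genes with one. The CCAAT box was present in 78.1% of these promoters against 39.62%. It was also in 94.1% of the promoters of the called chaperone genes described below, which rose. For S phase genes the E2F patterns TTTGGCGC, TTTCCCGC, TTTCGCGC and TTTGCCGC were found in 8 of 28 promoters, 28.6%, against 3.42%. Read from the other side, 23.8% of the 429 genes that hold an E2F pattern were lower at 24 h against 11.7% of all genes with a promoter, whereas 11.8% of the 1666 genes that hold TTTGAA were lower. Of the 4975 genes that hold a CCAAT box, 13.5% were lower and 12.4% higher. A match is a description of letters and not evidence of a bound site. The promoter of Top2a is shown because it is the mitosis gene with the largest decrease that holds the motif. It is printed 5' to 3' on the minus strand, chr11:99024190-99024439 of GRCm38.p6, ending at the base before the start, with the 2 CHR matches in capitals, 1 of them on the opposite strand.
Top2a: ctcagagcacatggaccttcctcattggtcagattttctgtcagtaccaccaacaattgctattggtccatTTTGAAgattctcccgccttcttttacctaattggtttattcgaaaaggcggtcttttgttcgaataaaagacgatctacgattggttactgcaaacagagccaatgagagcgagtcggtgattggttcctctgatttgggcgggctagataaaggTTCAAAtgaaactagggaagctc

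Sterol synthesis was lower at 24 h along nearly its whole path. Of 20 cholesterol synthesis and uptake genes, 16 fell and 1 rose, with a median of -0.740, and at 6 h against 1 h limma called none and 2 had an unadjusted p under 0.05. Idi1, the isomerase that makes the activated isoprene unit of the pathway, was at 8.65, 8.93 and 8.83 at 1 h, at 9.20, 8.68 and 9.05 at 6 h and at 6.67, 6.46 and 7.09 at 24 h. The groups of 1 and 24 h were separated by over 1 log2 unit, and the decrease was 4.16-fold (-2.06 ± 0.27, adjusted p = 2.40e-06). Stard4, a sterol carrier, fell 2.84-fold, Sqle, the squalene epoxidase, 2.38-fold, and Hmgcs1, an early enzyme of the path, 2.29-fold. Insig1, which holds the sterol sensor in the endoplasmic reticulum, fell by 0.72 ± 0.13, and Srebf2, the transcription factor that drives the pathway, by 0.41 ± 0.08. Ebp, a late sterol isomerase, was the member that rose, by 0.48. The sterol element pattern, ATCAC, then 1 base, then CCAC, was in none of the 12 called promoters that could be read and in 0.18% of all. The CCAAT box was in all 12, against 39.62% of all.

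Fatty acid synthesis followed with smaller differences, 12 of 15 genes lower and 1 higher, with a median of -0.538. Fasn, fatty acid synthase, averaged 10.89 ± 0.15 at 1 h and 10.21 ± 0.02 at 24 h (SD, n = 3), a difference of -0.68 ± 0.08 (adjusted p = 4.85e-07). Fads2, a desaturase, fell by 0.95 and Scd2, a stearoyl-CoA desaturase, by 0.66. Gpam, which starts triglyceride assembly, rose by 0.31. Plin2, which coats lipid droplets, rose by 0.96 ± 0.11, and Angptl4, a secreted inhibitor of lipoprotein lipase, by 1.37 ± 0.16.

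Energy metabolism genes moved less. Of 27 glycolysis and hypoxia genes, 13 were lower and 1 higher, with a median of -0.270. The same genes were slightly higher at 6 h than at 1 h, with 5 called higher and a median of 0.166. Pfkl, a phosphofructokinase subunit, fell by 0.67 ± 0.10, and Eno2, an enolase, rose by 0.63 ± 0.15. The probe sets of Pdk1, the kinase that closes pyruvate dehydrogenase, disagreed: 3 of them fell, by 1.11 in the brightest, and the dimmest gave 0.67, so no direction is drawn for it. Pfkl also had a dim probe set with a difference of 0.337 against the direction of its brighter ones. Of 33 respiratory chain genes 10 were lower, none by over 0.30, with a median of -0.166. That count ranged from 3 to 6 when certain arrays were left out, namely 1 h replicate 2 or 3 or 24 h replicate 2 or 3, and was 17 or 18 when the arrays were normalized again.

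Immediate early genes included the largest decrease of all genes, in Fosb, and many had fallen by 6 h. Of 29 tested, 17 were lower at 24 h and 2 higher, with a median of -0.446, and 13 were already lower at 6 h with a median of -0.514. Fosb, a subunit of the transcription factor AP-1, was at 8.61, 8.65 and 8.41 at 1 h, at 5.56, 5.94 and 5.92 at 6 h and at 6.01, 5.92 and 5.72 at 24 h. It fell 6.38-fold from 1 to 24 h (-2.67 ± 0.16, adjusted p = 1.23e-11), and its 6 h and 24 h arrays overlapped. Egr3, a zinc finger factor induced by growth factors, fell 5.39-fold, from 10.83, 10.99 and 11.08 to 8.60, 8.54 and 8.47. Its 6 h arrays, at 8.18, 8.09 and 7.97, were below those of 24 h. The other probe set of Egr3, of similar brightness, gave -0.273 ± 0.114 and was not called, and the mean of both gave -1.35, so the size of this decrease depends on the probe set. Egr1 followed the same course, at 12.75, 12.84 and 12.73, then 10.76, 10.90 and 10.84, then 11.53, 11.59 and 11.60, and fell 2.30-fold between 1 and 24 h. Egr2 fell by 2.02, Nr4a1, an orphan nuclear receptor, by 1.78, and Fos by 1.02 ± 0.15. Dusp1, a phosphatase that ends MAP kinase signals, and Jund were the members that rose, by 0.56 and 0.26.

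Feedback genes of growth factor signalling behaved alike in part, with 10 of 23 lower and 4 higher at 24 h and 10 lower at 6 h. Errfi1, an inhibitor of the EGF receptor, read 12.23, 12.22 and 12.28 at 1 h and 10.89, 10.5 and 10.48 at 24 h, a fall of 1.62 ± 0.10. Phlda1 fell by 1.19 and Ereg, the growth factor epiregulin, by 1.14, and both had fallen by 6 h, by 1.59 and 1.51. Pdgfa, a platelet-derived growth factor chain, differed in timing: it was level at 6 h (0.12, adjusted p = 0.72) and fell by 1.42 ± 0.09 at 24 h.

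Contractile and serum response genes fell, 17 of 28 lower and 2 higher, with a median of -0.373. Ccn2, the matrix-bound growth regulator also called CTGF, went from 9.85, 9.50 and 9.93 at 1 h through 9.20, 8.70 and 8.42 at 6 h to 7.93, 7.67 and 7.73 at 24 h. The 3 times did not overlap, and the decrease was 3.95-fold (-1.98 ± 0.23, adjusted p = 4.09e-07). Its relative Ccn1 fell by 1.61 ± 0.18. At 6 h against 1 h, 6 of the 28 genes were already lower and 0 higher, with a median of -0.026, against 1.55% lower among all genes tested. Some of the other members were not called at 6 h and fell by 24 h. Myl9, a myosin light chain, Vcl, vinculin, and Acta2, smooth muscle actin, differed by 0.02, 0.09 and 0.01 at 6 h, none called. At 24 h they fell by 1.15, 0.93 and 0.65. Myh9, the non-muscle myosin heavy chain, rose by 0.33.

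Chaperones of the endoplasmic reticulum rose by 24 h. Of 25 genes of this arm of the unfolded protein response, 21 were higher at 24 h than at 1 h and none was lower, with a median of 0.716. At 6 h against 1 h, 4 were lower and none higher, with a median of -0.444, and 19 had an unadjusted p under 0.05. Their mean log2 level was 11.113, 10.710 and 10.806 on the 1 h arrays, 10.472, 10.470 and 10.396 at 6 h, and 11.624, 11.649 and 11.643 at 24 h. The 1 h arrays were more spread than those of the later times, with replicate 1 the highest. Hspa5, the chaperone BiP, averaged 13.76 ± 0.21 at 1 h (SD, n = 3) and read 13.13, 13.18 and 13.16 at 6 h and 14.30, 14.30 and 14.22 at 24 h. The rise from 1 to 24 h was 0.51 ± 0.13, or 1.43-fold (adjusted p = 0.00399), and from 6 to 24 h it was 1.12 ± 0.13, with no overlap in either case. A second probe set of Hspa5 rose by 0.716 from 1 to 24 h and passed, while its dimmest gave 0.044 and was not called. Sdf2l1, part of the chaperone complex around BiP, read 10.24, 9.10 and 9.45, then 8.36, 8.32 and 8.32, then 11.05, 11.09 and 11.05. Its rise was 1.47 ± 0.30 (adjusted p = 0.000615). Pdia4, a disulfide isomerase, rose by 1.44 ± 0.19, Dnajb9, a BiP cochaperone, by 1.39 ± 0.16, and Creld2, a secreted stress protein, by 1.35 ± 0.29. Xbp1, the transcription factor spliced in this response, gave 0.06 ± 0.11 with overlapping groups (adjusted p = 0.820), and its splicing cannot be read from these probe sets. The other members that were not called were Derl3, Sec23b and Herpud1, at 0.06, 0.18 and 0.50.

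The ER stress response element, ERSE, is CCAAT followed by 9 bases and CCACG, and so contains a CCAAT box. It was in the promoters of 9 of 17 called members that could be read, 52.9%, against 18 of 12557 genes, 0.14%. Of those 18 genes, 10 were higher at 24 h, 55.6%, and 0 were lower, against 11.7% higher among all genes with a promoter. Of the 10, 9 are the list members just counted, so this share mostly repeats the list result. Outside the list only Alg12, a glycosylation enzyme of the endoplasmic reticulum, was called among the holders (0.52, adjusted p = 0.00196). Derl3 is the list member that holds the element and was not called. The matches are shown because they are the letters that the called members share. Each is printed 5' to 3' along the element, with CCAAT and CCACG in capitals, in order of the size of the increase, and the coordinates are those of GRCm38.p6.
Creld2 (chr15:88819520-88819538, minus strand): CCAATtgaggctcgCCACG
Pdia6 (chr12:17266491-17266509, plus strand): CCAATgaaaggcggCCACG
Dnajc3 (chr14:118937827-118937845, plus strand): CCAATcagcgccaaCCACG
Ero1b (chr13:12565682-12565700, minus strand): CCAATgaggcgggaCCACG
Hsp90b1 (chr10:86705533-86705551, plus strand): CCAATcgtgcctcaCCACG
Hsp90b1 (chr10:86705638-86705656, minus strand): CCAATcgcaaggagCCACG
Canx (chr11:50325800-50325818, minus strand): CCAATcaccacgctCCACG
Hspa5 (chr2:34772025-34772043, plus strand): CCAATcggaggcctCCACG
Syvn1 (chr19:6046532-6046550, plus strand): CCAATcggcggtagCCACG
Calr (chr8:84847075-84847093, plus strand): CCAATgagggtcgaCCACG
These genes encode a secreted stress protein, a disulfide isomerase, a cochaperone, an oxidase, the chaperones GRP94, calnexin and BiP, a ubiquitin ligase of the degradation pathway, and calreticulin. Their increases ran from 1.35 for Creld2 to 0.42 for Calr.

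The wider promoter of Creld2 is printed because it holds the element in the gene with the largest increase among them. It is on the plus strand, chr15:88819496-88819645, ending at the base before the start. The match runs from position -126 to -108 relative to the start and is read on the opposite strand, so the capitals show its complement.
Creld2: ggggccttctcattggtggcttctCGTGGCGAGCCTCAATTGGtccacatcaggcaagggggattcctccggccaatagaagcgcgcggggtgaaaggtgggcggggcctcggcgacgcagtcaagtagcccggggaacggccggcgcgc

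The integrated stress response, which restrains translation and induces amino acid and survival genes through ATF4, rose in part. Of 29 genes, 12 were higher at 24 h and 1 was lower, with a median of 0.280, and at 6 h 12 were lower than at 1 h with a median of -0.588. The count of 12 is 7 without 1 h replicate 2, the array with the lowest mean of this list, 10.105, against 10.566 and 10.294 on the others. Ddit3, the stress transcription factor CHOP, was at 11.12, 10.46 and 10.62 at 1 h, at 10.55, 10.89 and 10.74 at 6 h and at 12.72, 12.83 and 12.78 at 24 h. It rose 4.13-fold (2.05 ± 0.18, adjusted p = 7.82e-09), and its 6 h arrays lay within the range of the 1 h arrays. Atf4 rose by 0.64 ± 0.08 and Atf5 by 1.03 ± 0.17. Trib3, a pseudokinase target of CHOP, rose by 1.23 ± 0.35, a call that was lost without 1 h replicate 2 (0.918, adjusted p = 0.0945). Asns, asparagine synthetase, read 11.95, 11.40 and 11.69 at 1 h, 10.77, 10.84 and 10.64 at 6 h and 11.76, 11.61 and 11.64 at 24 h, a difference of -0.01 ± 0.21. Psat1, of serine synthesis, was the member that fell, by 0.54.

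**Figure D3:**
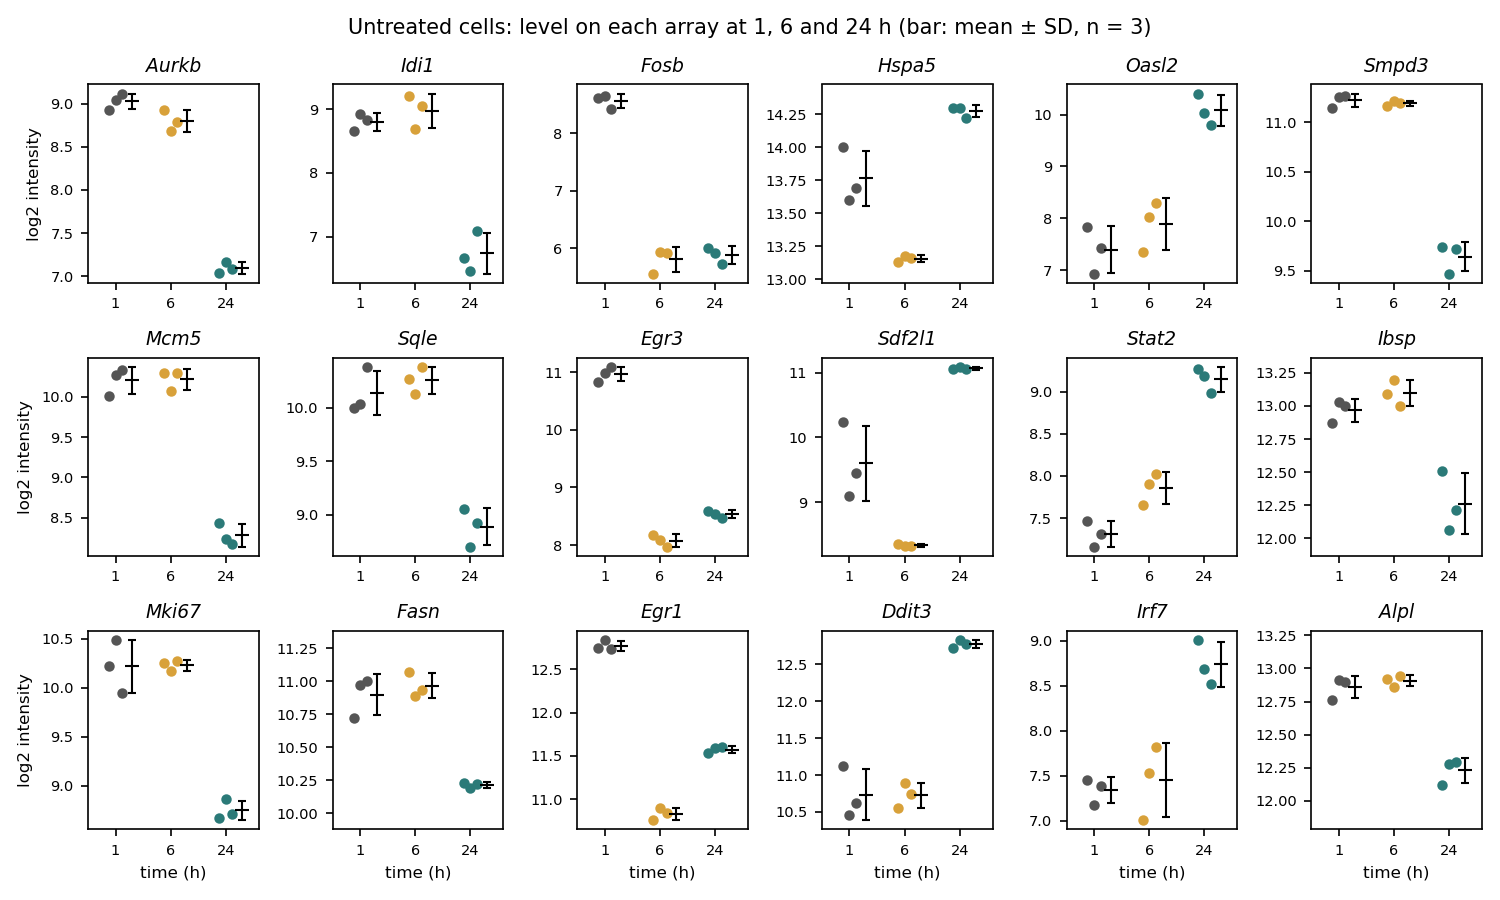
Log2 intensity on each array of untreated cells at 1, 6 and 24 h for 18 genes, with the mean and SD of the 3 arrays beside the points. Columns hold division, lipid, immediate early, stress, interferon and osteoblast genes. Fosb and Egr3 had fallen by 6 h, Hspa5 and Sdf2l1 were lowest at 6 h and highest at 24 h, and Aurkb, Mcm5 and Idi1 fell after 6 h.

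Interferon-stimulated genes rose without ligand. Of 36 tested, 25 were higher at 24 h and none was lower, with a median of 0.969. At 6 h limma called none, and 3 had an unadjusted p under 0.05. Oasl2, of the oligoadenylate synthetase family that senses viral RNA, had the largest increase of all genes. It was at 7.83, 6.93 and 7.42 at 1 h, at 7.34, 8.03 and 8.30 at 6 h and at 10.41, 10.03 and 9.81 at 24 h. The rise was 6.44-fold (2.69 ± 0.40, adjusted p = 1.75e-05), with every 24 h array above all others. Stat2 and Irf9, subunits of the complex that carries the interferon signal to DNA, rose by 1.83 ± 0.16 and 1.73, and Irf7, a factor that amplifies it, by 1.40 ± 0.20. Rtp4, Xaf1, Bst2 and Usp18, all targets of that complex, rose by 2.16, 1.94, 1.78 and 1.76. Ifit1, a sensor of viral RNA caps, read 9.60, 8.96 and 9.58 at 1 h and 10.88, 10.32 and 10.07 at 24 h. The arrays of Ifit1 did not overlap, yet the difference of 1.05 ± 0.39 missed the threshold (adjusted p = 0.0567). Rsad2, Mx1 and Psmb9 gave -0.15, 0.17 and 0.09, none called.

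The 24 h arrays differed among themselves in this list. Its mean log2 level was 9.346 on replicate 1, 8.935 on replicate 2 and 8.752 on replicate 3, against 8.166, 7.831 and 8.043 at 1 h. Ifit3 gave the widest spread, at 11.66, 10.73 and 10.04, and was not called. Without 24 h replicate 1 the count of called genes was 19, and without replicate 3 it was 28. The mean log2 level of the macrophage and blood cell markers was 6.439 to 6.496 on the 1 h arrays and 6.456 to 6.531 on the 24 h arrays, and their part in the interferon result was not tested. Of 13 tested, 1 was called, Cd68, a lysosomal protein gene, at 5.83, 5.86 and 5.73 at 1 h and 6.66, 6.32 and 6.00 at 24 h, and this call is lost without 24 h replicate 1. Adgre1 and Aif1, defining genes of macrophages, lay between 5.26 and 5.55 on all of these arrays.

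The interferon-stimulated response element, searched as GAAA, then 2 bases, then GAAA, was in 8 of 18 called members with a promoter, 44.4%, against 3.03% of all genes. Among all 380 genes that hold it, 17.6% were higher at 24 h against 11.7%. The promoter of Stat2 is shown as that of the gene with the largest increase that holds the element. It is chr10:128270248-128270497 on the plus strand of GRCm38.p6, ending at the base before the start. The match, in capitals, is read on the opposite strand.
Stat2: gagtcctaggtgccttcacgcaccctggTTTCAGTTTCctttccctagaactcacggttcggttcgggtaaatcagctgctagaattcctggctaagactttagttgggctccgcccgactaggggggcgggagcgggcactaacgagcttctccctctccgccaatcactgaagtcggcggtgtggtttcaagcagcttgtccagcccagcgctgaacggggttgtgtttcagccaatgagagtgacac

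Most lysosome and autophagy genes rose. Of 29 tested, 20 were higher and 1 lower, with a median of 0.466 and a range from -0.46 to 0.99, and at 6 h 1 was called and the median was 0.021. Sqstm1, the autophagy receptor p62, read 12.42, 12.19 and 12.40 at 1 h and 13.30, 13.37 and 13.32 at 24 h, a rise of 0.99 ± 0.09 (adjusted p = 6.32e-09). Map1lc3b and Gabarapl1, which mark autophagosome membranes, rose by 0.93 each, as did Neu1, a lysosomal sialidase, whose dimmer probe set gave -0.067. The cathepsins Ctsl and Ctsd rose by 0.87 and 0.63 and the membrane proteins Lamp2 and Lamp1 by 0.60 and 0.54. Gusb, a lysosomal glucuronidase often used as a reference gene, fell by 0.46.

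Genes of the oxidative stress response were higher in 8 of 21 and lower in none. Sod3, the secreted superoxide dismutase, rose by 0.93 ± 0.11 and Gstm1, a glutathione transferase, by 0.89 ± 0.09. Nqo1 and Gclm, which are also on that list, gave -0.08 and -0.19 and were not called. Of 18 heat shock genes 6 were higher and 1 lower. Hspb1, a small heat shock protein gene, read 11.13, 11.37 and 11.44 at 1 h and 12.54, 12.09 and 11.78 at 24 h, a rise of 0.82 ± 0.15 with replicate 1 the highest of the later arrays.

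Osteoblast genes were lower at 24 h. Of 22 tested, 12 fell and 2 rose, with a median of -0.395. At 6 h limma called none, and 3 had an unadjusted p under 0.05. Smpd3, a sphingomyelinase needed for mineralization of bone, had levels of 11.15, 11.26 and 11.27 at 1 h, 11.17, 11.22 and 11.20 at 6 h and 9.74, 9.47 and 9.72 at 24 h. It fell 3.00-fold (-1.58 ± 0.18, adjusted p = 4.09e-07), and the arrays of 1 and 6 h overlapped. Sp7, the osterix transcription factor, fell by 0.65 ± 0.11, from 10.80 to 10.88 at 1 h to 10.13 to 10.26 at 24 h. Alpl, tissue-nonspecific alkaline phosphatase, fell by 0.62 ± 0.08 and Ibsp, bone sialoprotein, by 0.71 ± 0.17. Ifitm5, an osteoblast membrane protein, and Panx3, a channel, fell by 1.15 and 0.91. Dmp1, an osteocyte matrix protein, read 9.18, 9.29 and 9.30 at 1 h and 9.54, 7.99 and 8.15 at 24 h. Its groups overlapped because replicate 1 stood apart from the others, and the difference of -0.69 ± 0.34 was not called (adjusted p = 0.159). Dmp1 passed under 3 alternatives. A dimmer probe set of Dmp1 gave -0.854 and passed (adjusted p = 0.0327 over all probe sets), while another gave -0.704 and did not. Sost, which marks mature osteocytes, stayed between 4.71 and 5.05. Pth1r, the receptor of both ligands of the study, gave -0.17 ± 0.09 and was not called (adjusted p = 0.236). Atf4 and Pdpn, the podoplanin gene, rose by 0.64 and 0.33.

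The ephrin genes that the study is about were not called with the probe sets used here, but those of Efnb2 disagreed. Efnb2, ephrin B2, read 7.72, 7.19 and 7.13 at 1 h and 7.50, 7.70 and 7.71 at 24 h, with overlapping groups and a difference of 0.29 ± 0.16 (adjusted p = 0.243). A second probe set of Efnb2, slightly dimmer, gave 0.546 ± 0.161 and passed (adjusted p = 0.0184 over all probe sets), while 2 others gave 0.182 and -0.201 and did not. Efnb2 also passed without 1 h replicate 1 (0.476, adjusted p = 0.043) and with array weights (0.386, adjusted p = 0.0183). Ephb4, its receptor, gave -0.05 ± 0.07. Of 15 genes that control osteoclasts, 6 were lower and none higher. Tnfrsf11b, osteoprotegerin, the decoy receptor that blocks osteoclast formation, fell from 10.79, 10.99 and 10.85 to 9.82, 9.64 and 9.44, by 1.24 ± 0.14 (adjusted p = 2.60e-07). Tnfsf11, its ligand RANKL, which drives osteoclast formation, fell by 1.13 ± 0.27, from 6.19, 5.76 and 6.02 to 4.93, 4.86 and 4.78. The 24 h values of Tnfsf11 lie at the dim end of the arrays, where fold changes are understated.

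The matrix genes were mixed. Of 26 collagens 5 were higher and 7 lower, with a median of -0.100. Col10a1, a collagen of hypertrophic cartilage, rose from 5.98, 5.81 and 6.08 to 7.06, 6.83 and 7.07, by 1.03 ± 0.15 (adjusted p = 7.09e-06), and Col5a3 rose by 0.92. Col11a1 and Col11a2, of fine fibrils, fell by 0.93 and 0.73. For the main bone collagen genes the size depended on the probe set. With the brightest one Col1a1 fell by 0.23 ± 0.07, a call lost without 1 h replicate 2 or 24 h replicate 1 or 3, and Col1a2 gave -0.12 ± 0.06 (adjusted p = 0.140). A less bright probe set of Col1a1 gave -0.515 ± 0.09 (adjusted p = 0.00016 over all probe sets), and one of Col1a2 gave -0.352 ± 0.07 (adjusted p = 0.000653), both called. Of 17 collagen processing genes 4 were lower and none higher (23.5%, near the 23.1% called among all genes tested). Has2, a hyaluronan synthase, was among the largest decreases, from 8.29, 8.59 and 8.24 to 6.47, 6.68 and 5.80 (-2.06 ± 0.26, adjusted p = 1.26e-06). Fbln2, a fibulin, rose by 1.16, and Omd, osteomodulin, fell by 0.69.

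Matrix proteases were more often higher than lower, 10 against 4 of 22. Mmp11, stromelysin 3, had the largest increase, from 9.78, 9.39 and 9.42 to 11.53, 11.38 and 11.27 (1.86 ± 0.13, adjusted p = 2.19e-10). Mmp13, the collagenase of bone and cartilage, rose by 0.96 ± 0.10, from 12.34, 11.97 and 12.10 to 13.11, 13.08 and 13.10. Adamts4, which cuts aggrecan, and Mmp3, stromelysin 1, rose by 0.98 and 0.84, and the inhibitor Timp1 rose by 0.53. Adamts1 and Adamts9 each fell by 0.82.

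Signalling genes of the Wnt, BMP, TGF-beta and IGF pathways moved in both directions. Of 30 Wnt genes, 4 were higher and 7 lower. Wif1, a secreted inhibitor of Wnt ligands, fell 3.71-fold, from 10.89, 11.08 and 11.14 at 1 h and 10.83, 11.29 and 10.92 at 6 h to 9.50, 9.06 and 8.90 at 24 h (-1.89 ± 0.16, adjusted p = 4.60e-09). Dkk2, another secreted regulator, fell by 1.58, whereas its relative Dkk3 rose by 0.88. Axin2, a target gene of the pathway, gave -0.29 ± 0.12 (adjusted p = 0.0959). Of 31 BMP and TGF-beta genes 3 were higher and 9 lower. Id3 and Id1, targets of BMP signals, fell by 1.31 ± 0.10 and 1.14 ± 0.12, and both had fallen in part at 6 h, by 0.54 and 0.82. Tgfbr2, a TGF-beta receptor, rose by 0.84. Of 15 genes of the IGF axis 3 were higher and 1 lower (26.7%, near the 23.1% called among all genes tested). Igf1 read 8.81, 9.31 and 8.69 at 1 h and 8.01, 8.01 and 8.44 at 24 h, and the difference of -0.78 ± 0.30 was not called (adjusted p = 0.062). It passed under 5 alternatives, and 2 dimmer probe sets of Igf1 passed at -0.787 and -0.563 (adjusted p = 0.00101 and 0.0138 over all probe sets).

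Among 27 chemokine and cytokine genes 2 were higher and 4 lower (22.2%), and among 15 acute phase and complement genes 1 was higher and 1 lower (13.3%). Neither share is above the 23.1% called among all genes tested. Cxcl5, a neutrophil chemokine, rose by 1.46 ± 0.26, with 1 h arrays at 7.57, 6.64 and 6.47. Ccl2, a monocyte chemokine, fell by 0.82 and Lif, a cytokine of the gp130 family, by 0.94, and both had fallen at 6 h. A dimmer probe set of Lif gave -0.12 and was not called. Of 18 clock genes 1 was called (5.6%), and it was lower. That gene is Per1, which also responds to cAMP and glucocorticoid, at 8.22, 8.49 and 8.31 at 1 h and 7.38, 7.52 and 7.47 at 24 h. Dbp, an output gene of the clock, was lower at 6 h by 0.78 (adjusted p = 0.00062) but at 24 h gave -0.34 ± 0.13 (adjusted p = 0.0524). That difference of Dbp passed under 8 alternatives. Arntl, which encodes BMAL1, gave 0.15 ± 0.10. Per2, another clock gene, gave -0.213 with the probe set used and was not called. A second probe set of Per2, at a mean log2 of 6.51 against 6.52, gave -0.526 and passed (adjusted p = 0.000277 over all probe sets). The clock result thus depends in part on probe set and setting. Of 24 targets of FoxO factors and glucocorticoid 13 were higher and 6 lower, and the first count is 8 without 1 h replicate 2 or without 24 h replicate 1. Txnip, a thioredoxin inhibitor that follows glucose, fell by 0.89 ± 0.13.

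Lists of other cell types are read against the 23.1% of all genes that were called. The endothelial list had 0 of 12 called by limma and 1 at an unadjusted p under 0.05, and none of its differences was beyond -0.25 or 0.05. The muscle list had 1 of 11, Smtn, a cytoskeletal gene (-0.30). The chondrocyte list had 1 higher and 2 lower of 12 (25%), and the adipocyte list 3 higher and 1 lower of 17 (23.5%), both near that share. Lpl, lipoprotein lipase, rose by 0.47. Pparg, the factor that defines adipocytes, gave 0.29 ± 0.11 (adjusted p = 0.0502), and it passed under 10 alternatives. Stromal markers stayed high: Cxcl12, the chemokine of marrow stroma, was at 12.86, 13.02 and 13.20 at 1 h and 13.04, 12.99 and 12.67 at 24 h. Of 17 stromal genes 6 were higher and 2 lower (47.1%), with Vcam1 up by 0.52 and Fap, a fibroblast protease, down by 0.66.

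Several of the largest changes lay outside the lists. Car6, a secreted carbonic anhydrase, rose 4.80-fold, from 6.86, 5.88 and 6.28 to 8.49, 8.69 and 8.63 (2.26 ± 0.25, adjusted p = 2.67e-07), whereas Car8, a member of the same family without enzyme activity, fell 5.17-fold, from 9.55, 9.75 and 9.64 to 7.29, 7.25 and 7.29 (-2.37 ± 0.15). Neat1, a long noncoding RNA that builds paraspeckles, rose stepwise, from 10.60, 10.39 and 10.28 at 1 h to 11.48, 11.85 and 11.61 at 6 h and 12.26, 12.40 and 12.46 at 24 h. The 3 times did not overlap for Neat1, and its rise by 24 h was 1.95 ± 0.17 (adjusted p = 4.34e-09). A dimmer probe set of Neat1, at a mean log2 of 8.25, gave -0.064 and was not called, so this rise depends on the probe set. Tenm4, a teneurin of the cell surface, Scara5, a ferritin receptor, and Ahnak2 rose by 1.93, 1.83 and 1.83. Cdsn, corneodesmosin, rose by 1.95 ± 0.35 after a value of -1.15 at 6 h that was not called (adjusted p = 0.099).

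**Figure D4:**
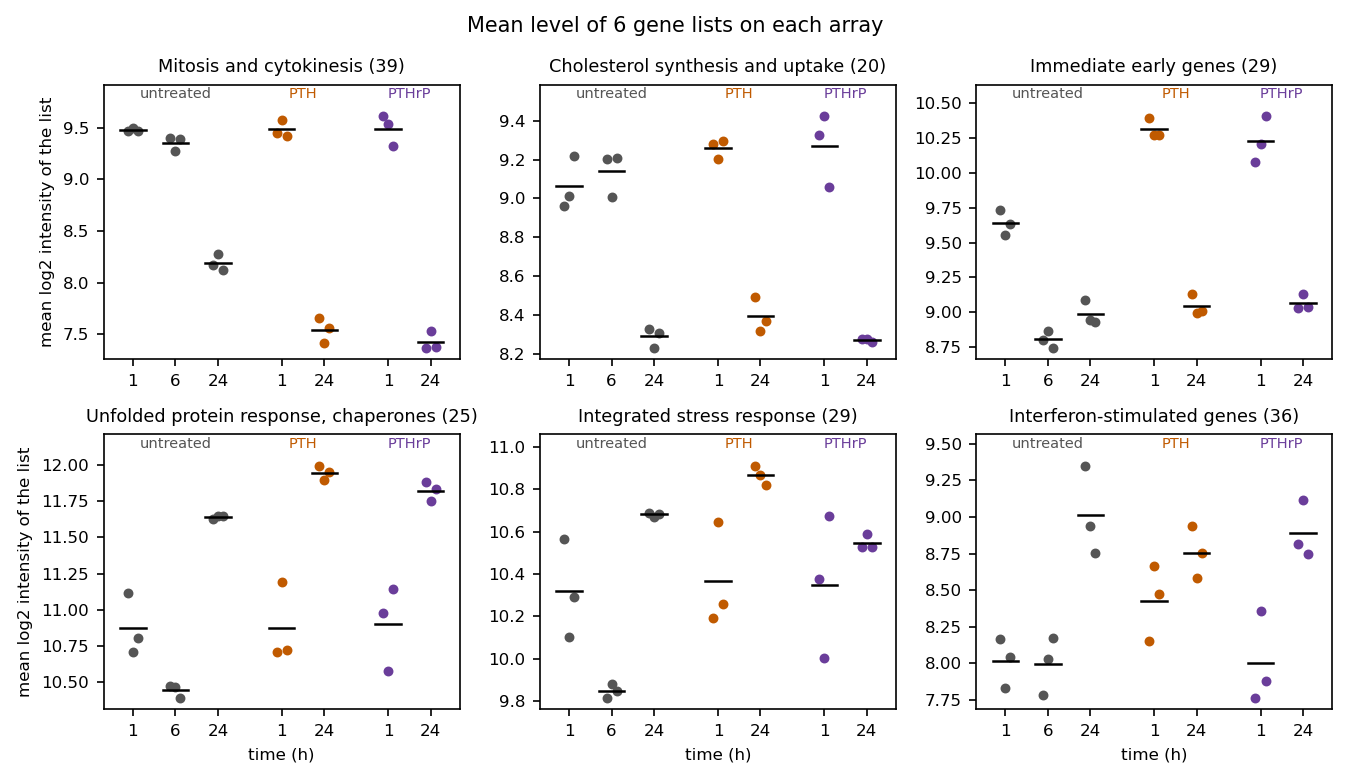
Mean log2 intensity of 6 gene lists on each array at 1, 6 and 24 h without ligand and at 1 and 24 h with PTH or PTHrP, with the number of genes in brackets and bars at group means. In untreated cells the mitosis list was at 9.466 to 9.499 at 1 h and 8.122 to 8.281 at 24 h, and the interferon list spread most among the 24 h arrays.

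The same interval was also measured with PTH and with PTHrP, on arrays whose levels do not enter the untreated difference. The spread of each gene, the choice of probe set and the filter come from all arrays, however. The calls compared here are therefore not independent of one another. With PTH, 5714 genes differed between 24 and 1 h (36.4%), with 2948 higher (18.8%) and 2766 lower (17.6%). With PTHrP, 5619 differed (35.8%), with 2660 higher (16.9%) and 2959 lower (18.8%). Of the 1821 genes higher without ligand, 1507 were also higher with PTH, which is 82.8% of the untreated list and 51.1% of the PTH list, and 1516 were higher with PTHrP, 83.3% and 57.0%. Of the 1814 lower without ligand, 1515 were lower with PTH, 83.5% and 54.8%, and 1623 with PTHrP, 89.5% and 54.8%. Opposite calls were few, 23 and 10 with PTH and 13 and 8 with PTHrP for the higher and lower genes. In all 3 conditions 1398 of the higher genes and 1472 of the lower genes had the same call. The arrays at 1 h with ligand had already been exposed to it.

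By list, the change with time under ligand was near that without it for some programmes and larger for others. The test is the change with ligand minus the change without it, and it passed for 1030 genes with PTH (6.56%) and 677 with PTHrP (4.31%). For the 39 mitosis genes the median change was -2.059 with PTH and -2.179 with PTHrP, against -1.327 without, and the difference passed as a larger decrease for 25 and 31 of them. Aurkb fell by 2.64 and 3.01 with the ligands, against 1.93. For the S phase list the medians were -0.803 and -0.891, against -0.829, and of 38 genes 1 and 3 differed toward a larger decrease, and 2 the other way with PTH. For the chaperones limma called 0 differences with either ligand, 7 with PTH and 1 with PTHrP had an unadjusted p under 0.05, and the medians were 1.001 and 0.881, against 0.716. For cholesterol genes the medians were -0.801 and -1.047, against -0.740. For osteoblast genes they were -1.262 and -1.001, against -0.395, and 14 and 10 of 22 differed toward a larger decrease. The interferon list had medians of 0.298 with PTH and 0.832 with PTHrP, against 0.969. Of its 36 genes, 17 were called higher and 4 lower at 24 h with PTH, and 24 higher and 0 lower with PTHrP. For 5 genes the change with PTH was lower than without ligand, and 19 had an unadjusted p under 0.05 for that difference.

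Of the named genes, 46 passed this test for both ligands. The 12 with the largest mean difference all had a larger decrease with ligand. Dmp1 gave -5.08 between 24 and 1 h on the PTH arrays and -4.66 on the PTHrP arrays, moving from 8.73, 9.08 and 9.27 to 3.99, 4.13 and 3.73 on the PTH arrays. The untreated value was -0.69, and the differences from it were -4.38 and -3.97. Fos, Nr4a1 and Btg2 started higher with ligand: Fos was at 12.94, 12.92 and 12.80 with PTH at 1 h against 9.49, 9.02 and 9.25 without, while at 24 h it was at 8.60, 8.20 and 8.41 against 8.42, 8.26 and 8.03. Wif1 differed the other way. With PTH it averaged 10.74 ± 0.25 at 24 h against 11.07 ± 0.29 at 1 h (SD, n = 3), a change of -0.33 ± 0.16 that was not called (adjusted p = 0.125), compared with -1.89 in untreated cells. With PTHrP it fell by 0.56 (adjusted p = 0.0081). Txnip and Col10a1 changed without ligand and were not called with either one. Txnip gave 0.19 and -0.01 with PTH and PTHrP against -0.89 without, and Col10a1 gave 0.12 and 0.10 against 1.03.

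**Figure D5:**
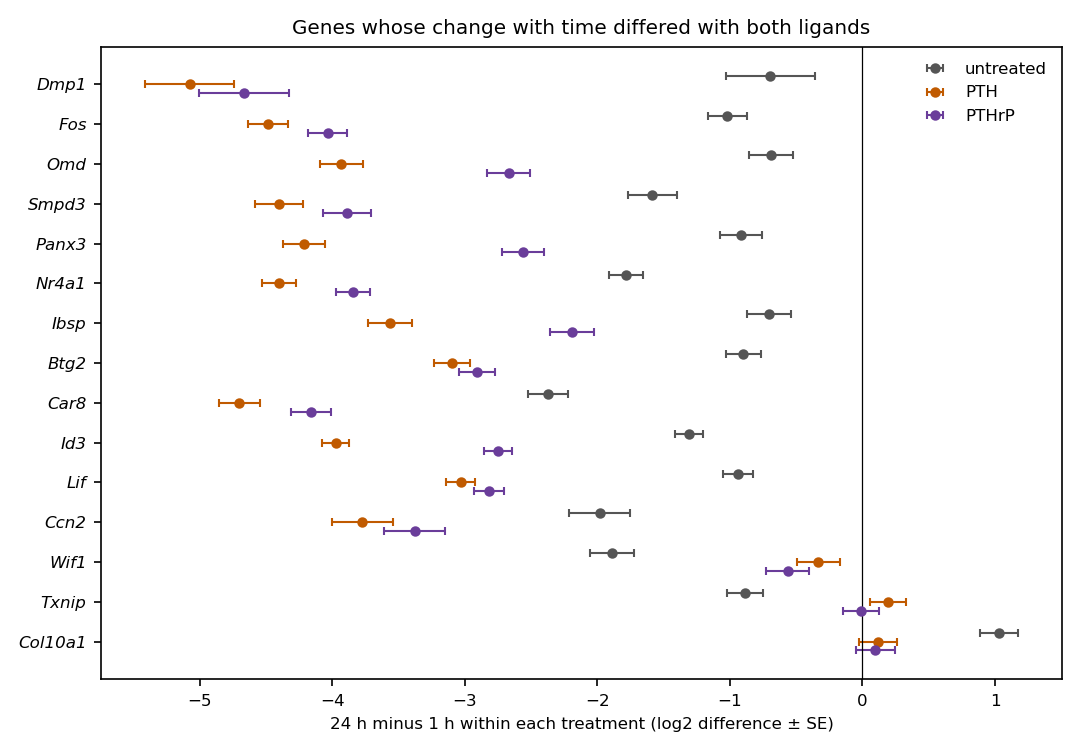
Log2 differences between 24 h and 1 h within untreated, PTH and PTHrP arrays for 15 genes, with standard errors from the fit as bars. In the upper 12 genes both ligands lie to the left of the untreated value, and in Wif1 and Txnip both lie to its right.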

How the data were processed

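Expression was measured in 27 arrays of 9 groups, 3 arrays each. The authors deposited linear intensity values, one per probe set, from 6.79 to 36257. The submitters' processing notes name RMA as their source. RMA quantile-normalizes arrays, so a shift of most transcripts in one direction would be hidden. Log2 was taken. Of 45101 probe sets 34945 carried 1 gene symbol, 932 several and 9224 none, 64 controls included. The probe set of highest mean stood for each of 18193 genes. The 15711 genes that reached log2 5 on 3 or more arrays were tested. limma 3.58.1 in R 4.3.3 fitted 9 group means to all arrays (lmFit, eBayes, two-sided, Benjamini-Hochberg, threshold 0.05, 18 residual and 5.54 prior degrees of freedom). The spread is shared by all groups, and the number of arrays limits precision. The code was tested on simulated data. Single values were compared by exact permutation. Alternatives were other probe set rules, filters, normalizations, fits and leaving out arrays. Named genes were the 15 largest increases and decreases without overlap, up to 4 called genes per list, and 45 of 54 anchor genes. A few further list members were named after their values were seen, as were those compared with ligand. The members of the comparison, the 38 gene lists (939 genes, 873 on the array) and the alternatives were chosen with earlier results of these data known. Some listed genes are not analysed here. Promoters are RefSeq, GRCm38.p6.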

Additional observations from a re-analysis of the deposited data

Results flagged for a closer look

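The results below were picked out because the change from 1 to 24 h differed between cells with and without ligand by a test of the difference itself, for both ligands (limma, adjusted p of 0.05 over 15711 genes). They are the 12 named genes with the largest such difference and the 3 largest in which the untreated change was smaller with ligand. Values are log2 changes with ligand minus the untreated change, first for PTH and then for PTHrP. The genes are grouped by function here, and by the mean of both differences Dmp1 was largest, followed by Fos. Osteoblast and osteocyte genes were Dmp1 at -4.38 and -3.97, Omd at -3.24 and -1.98, Smpd3 at -2.81 and -2.30, Panx3 at -3.30 and -1.65, and Ibsp at -2.86 and -1.48. Immediate early genes were Fos at -3.47 and -3.02, Nr4a1 at -2.62 and -2.06, and Btg2 at -2.20 and -2.01. The others that fell further were Car8 at -2.33 and -1.79, Id3 at -2.66 and -1.44, Lif at -2.09 and -1.88, and Ccn2 at -1.79 and -1.40. In the opposite sense stood Wif1 at 1.56 and 1.33, Txnip at 1.08 and 0.87, and Col10a1 at -0.91 and -0.93, the last of which rose without ligand. The treated arrays at 1 h already carry the early response to each ligand, and the 24 h arrays the late one, so these differences hold both.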

How the results depend on the processing

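The count of 3635 called genes stayed within 1.5 times under other probe set rules, filters, normalizations and fits, at 3519 to 4722, and 3100 to 3601 genes were called in both. No shared call changed direction there except with the probe set of largest variance, which turned 14. Array weights gave 5651 calls, 2879 higher and 2772 lower. The fit with the replicate block gave 3562 and, of the named genes, lost Ptx3. No label says whether the replicate numbers pair the arrays. Same-numbered deviations correlated at 0.14, 0.094 and -0.016, and differently numbered ones at -0.169 to 0.108. With 3 arrays a group these values cannot settle whether the arrays are paired. Without 1 array the count ran from 2853 to 3270. The share of calls that were higher lay between 45.4% with cyclic loess and 51.6% with the 6 arrays alone, except in the 1.5-fold test, where it was 34.2%. Asking for a change of over 1.5-fold left 319 genes, 109 higher and 210 lower, by the construction of that test. It left 903 with PTH, 856 with PTHrP, and 113 and 69 for the differences from untreated change. By list it left 14 S phase, 3 chaperone, 2 integrated stress, 6 cholesterol, 1 fatty acid, 13 interferon, 7 immediate early, 2 osteoblast, 4 contractile, 2 ribosome biogenesis and 5 lysosome genes. On leaving out 1 array the integrated stress count of 12 ranged from 7, without control 1 h replicate 2, to 13, and the cause was not tested. It was 17 with array weights and 12 to 14 under the alternatives other than these and the 1.5-fold test. Pdk1 reversed to 0.67 (adjusted p = 0.00475) with the probe set of largest variance, which for that gene is its dimmest. Motif shares read in 150 bases were 34.4% for CHR, 21.4% for E2F, 38.9% for ISRE and 41.2% for ERSE. The limits are those of 3 arrays a group: differences near the median SE of 0.102 are not resolved, genes near background have understated folds, and no slide, scan or culture date was given, so batches could not be varied.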
